A study of Mus musculus with 21 samples.

Results

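The transcripts of 10 circadian clock genes were followed in podocyte fractions of single mouse kidneys. The genes were taken by symbol from a list that had been drawn up with earlier results of these libraries known, and they are 10 of the 27179 genes counted in each library. They fall into an activator arm of 4 genes (Arntl, Npas2, Clock and Cry1) and a D-box and repressor arm of 6 genes (Dbp, Per3, Ciart, Bhlhe41, Nr1d1 and Nr1d2). All 10 were among the 16377 genes that passed the filter on low counts. The differences between groups had been seen when the list was made, so these are given as a description, without p-values. Where a listed gene is said to pass a threshold, this too describes the gene and is no independent test.

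The molecular clock is a feedback loop of transcription that runs in nearly every cell, the podocyte included. CLOCK or its relative NPAS2 pairs with BMAL1, the product of Arntl, and the pair binds E-boxes and switches on Per and Cry genes, Nr1d1, Nr1d2, Dbp, Ciart and Bhlhe41, several of whose products shut the pair off again. The REV-ERB proteins encoded by Nr1d1 and Nr1d2 repress Arntl, Npas2, Clock, Cry1 and Nfil3 at ROR elements, while DBP, TEF and HLF activate and NFIL3 represses genes that carry a D-box. Transcripts of the activator side and of the Dbp and Nr1d1 side therefore peak at opposite times of the day. CRY1 protein is an inhibitor, and Cry1 stands in the activator arm because its transcript is also under ROR elements.

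The study asked how podocytes of middle-aged mice differ from those of young mice and what MCC950, an inhibitor of the NLRP3 inflammasome, does to them. All mice were male C57BL/6J wildtype animals. The young group (n = 6) was 4 months old and untreated, the saline group (n = 7) was 19.5 months old and had received saline for 6 weeks from 18 months of age, and the MCC950 group (n = 8) had received 10 mg/kg MCC950 over the same weeks. The comparison with age is therefore also one between injected and uninjected mice. The paper describes its 4-month control mice as coming from a tissue archive and lists fewer of them than the 6 young libraries. Whether these are the sequenced mice is not stated, and a separate origin of the young group cannot be told apart from age. The fraction was collected from digested cortex with magnetic beads and antibodies to nephrin, each library being 1 mouse. The hour at which the kidneys were taken is not given in the sources used here, and it cannot be told apart from the groups.

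Library totals ranged from 27375870 to 84876399 counts, and between 49.9% and 80.4% of these lay in mitochondrial genes. All 10 podocyte markers examined were counted in every library, but so were markers of proximal tubule, endothelium and macrophages, so the fraction was not pure. The mean level of the podocyte markers had a median of 6.11 log2 CPM (CPM being counts scaled to library size) in young, 4.22 in saline and 4.70 in MCC950 libraries. The medians for the proximal tubule markers were 7.14, 7.02 and 7.98 log2 CPM. In such bulk fractions a smaller share of cells of a type and less RNA per cell cannot be told apart.

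To show the control sequences of this loop, the window from 250 bases before to 50 bases after each RefSeq start site was searched on both strands for the E-box CACGTG, the D-box TTANGTAA and the ROR element (AANTN followed directly by GGTCA). Of 32851 such windows of 300 bases in the mouse genome, 7.15% held the E-box, 2.32% the D-box and 0.606% the ROR element. All 10 genes had a window. Ciart held 3 E-boxes, beginning 116, 58 and 44 bases before the start site. Per3 held 2 D-boxes, 205 and 158 bases before it. Cry1 held 1 E-box at 60 bases and Bhlhe41 held 1 E-box at 153 bases before it. Arntl held a ROR element 27 bases after 1 of its start sites. No matches of different motifs overlapped in these genes, and the windows of Npas2, Clock, Dbp, Nr1d1 and Nr1d2 held none of the 3 strings. The exon-free stretch of the 4 upstream windows with a match is printed below, 5′ to 3′ on the strand of the gene, from RefSeq on GRCm38.p6, with the motif in capitals. For Arntl the element is given with 8 bases on either side.
Ciart (chr3:95882252-95882478, minus strand): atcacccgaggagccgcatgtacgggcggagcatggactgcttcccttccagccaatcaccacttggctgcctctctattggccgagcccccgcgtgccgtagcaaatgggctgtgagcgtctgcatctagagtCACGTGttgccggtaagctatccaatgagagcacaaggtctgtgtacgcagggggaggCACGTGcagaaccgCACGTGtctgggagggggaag
Per3 (chr4:151044666-151044915, minus strand): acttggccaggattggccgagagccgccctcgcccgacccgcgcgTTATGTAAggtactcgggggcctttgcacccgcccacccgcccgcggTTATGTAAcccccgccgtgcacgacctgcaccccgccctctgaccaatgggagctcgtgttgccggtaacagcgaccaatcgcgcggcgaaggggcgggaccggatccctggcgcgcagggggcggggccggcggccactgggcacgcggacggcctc
Cry1 (chr10:85185065-85185304, minus strand): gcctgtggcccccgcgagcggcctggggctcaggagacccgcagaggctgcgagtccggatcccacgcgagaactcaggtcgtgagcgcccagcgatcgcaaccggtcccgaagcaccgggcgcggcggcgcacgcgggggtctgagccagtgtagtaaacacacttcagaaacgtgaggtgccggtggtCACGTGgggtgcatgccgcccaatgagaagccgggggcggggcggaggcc
Bhlhe41 (chr6:145865559-145865670, minus strand): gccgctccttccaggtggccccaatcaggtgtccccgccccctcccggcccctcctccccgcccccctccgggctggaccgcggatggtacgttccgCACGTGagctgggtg
Arntl, around the ROR element (chr7:113207530-113207555, plus strand): aaggcagaAAGTAGGTCAgggacgga

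Per kilobase of exon, Nr1d1 was the most abundant of the 10 transcripts in every group, with a median of 16.9 CPM per kilobase in young, 22.8 in saline and 16.9 in MCC950 libraries. Nr1d2 followed at 5.85, 8.43 and 5.48 CPM per kilobase. Dbp stood at 1.97 CPM per kilobase in young libraries, next to Clock at 1.94, but at 6.53 in saline libraries, where Clock was at 1.38. Bhlhe41 had the lowest median in young libraries, 0.201 CPM per kilobase, and Npas2 the lowest in saline libraries, 0.283. The D-box and repressor arm thus held both the most and, in young libraries, the least abundant of these transcripts.

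With age, the 4 genes of the activator arm were lower and the 6 genes of the other arm higher on average. Arntl, which encodes BMAL1, ranged from 3.01 to 11.3 CPM around a median of 7.36 in young libraries, and from 1.54 to 3.62 CPM around 2.83 in saline libraries. Of the young libraries, only replicate 1 at 3.01 CPM lay within the saline range. The fitted log2 fold change was -1.40 ± 0.34 (SE). Npas2, the partner that can stand in for CLOCK, was at 1.89 to 5.78 CPM (median 2.44) in young and at 0.548 to 1.83 CPM (median 1.35) in saline libraries. Here every saline library lay below every young library, and the log2 fold change was -1.45 ± 0.42. Clock itself was at 22.8 to 34.4 CPM (median 26.6) in young and 17.6 to 19.8 CPM (median 19.0) in saline libraries. It was again lower in all saline libraries, by a smaller amount, with a log2 fold change of -0.57 ± 0.08. Cry1 ranged from 1.79 to 6.92 CPM (median 3.18) in young and from 1.26 to 2.82 CPM (median 1.68) in saline libraries. Its groups overlapped broadly and its log2 fold change of -0.80 ± 0.36 did not pass the threshold.

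Among the genes of the other arm, Dbp differed most. This D-box activator ranged from 1.06 to 17.4 CPM (median 5.89) in young libraries and from 11.7 to 37.7 CPM (median 19.5) in saline libraries. Only young replicates 1 and 2 reached into the saline range. The log2 fold change of 1.44 ± 0.61 had the largest standard error of the 10 genes and did not pass. Ciart, which encodes a repressor of the CLOCK and BMAL1 pair, rose from a median of 1.77 CPM (0.646 to 2.65) to 3.56 CPM (2.39 to 6.75), a log2 fold change of 1.21 ± 0.33. Bhlhe41, which encodes the repressor DEC2, rose from 1.35 CPM (0.968 to 1.82) to 2.97 CPM (2.30 to 4.10), and its groups did not overlap. Its log2 fold change was 1.12 ± 0.27. Per3, a period gene, was at a median of 7.19 CPM (3.62 to 10.5) in young and 11.9 CPM (7.38 to 19.5) in saline libraries, with a log2 fold change of 0.80 ± 0.31. The REV-ERB genes differed least. Nr1d1 was at medians of 52.1 and 70.0 CPM, with a log2 fold change of 0.30 ± 0.29, and the saline range of 49.0 to 78.8 CPM lay inside the young range of 20.5 to 81.5 CPM. Nr1d2 was at medians of 31.6 and 45.6 CPM, with a log2 fold change of 0.46 ± 0.27.

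In edgeR's quasi-likelihood test 5 of the 10 genes passed an adjusted p of 0.05 in the comparison with age, Arntl, Npas2 and Clock being lower and Ciart and Bhlhe41 higher. Over all genes tested 24.6% passed, 12.2% higher and 12.4% lower. Groups did not overlap for 3 of the 10 genes, against 9.37% of all genes. Under the threshold of the study, taken here as an unadjusted edgeR p under 0.05 with over a 2-fold change, 5 of the 10 passed, against 6.96% of all genes. The study itself used DESeq2 and does not state whether its p was adjusted. With the mean level of podocyte markers as a covariate 0 of the 10 genes passed in edgeR (1 at an unadjusted p under 0.05) and only 12 of all 16377 genes did. That level was at least 5.265 log2 CPM in young and at most 4.643 in saline libraries. As the groups did not overlap in it, this fit cannot separate the markers from age. With the proximal tubule markers as the covariate 8 passed. The part of cell composition in these differences was not tested beyond this. Without young replicate 3, Npas2 no longer passed, and the other 4 of these 5 genes passed whichever library was left out.

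**Figure D1:**
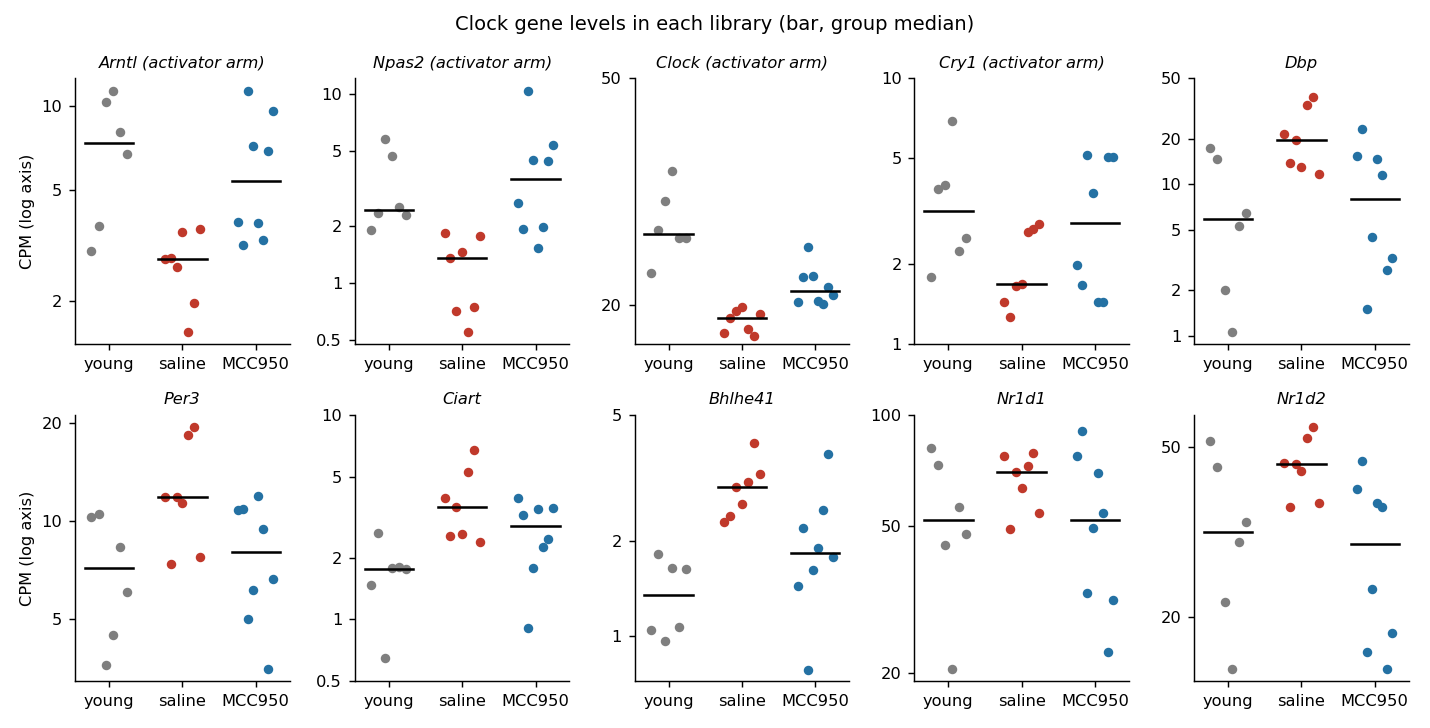
Levels of the 10 clock genes in each of 21 libraries, in CPM on a log axis, by group (young n = 6, saline n = 7, MCC950 n = 8), each point a mouse and each bar a group median. In the activator arm the saline points sit low. For Arntl, Clock and Cry1 they lie closer together than the young and the MCC950 points. For Npas2 they spread about as widely as the young points (SD of log2 CPM 0.678 in saline and 0.636 in young). Young and MCC950 points are spread for Dbp too, where saline libraries reach 37.7 CPM and the lowest young library is at 1.06 CPM.

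MCC950-treated mice were compared with the same 7 saline libraries, so that both contrasts share them and a low or high saline group enters both with opposite signs. Arntl was at 3.17 to 11.2 CPM (median 5.36) in MCC950 libraries, with a log2 fold change of 1.18 ± 0.32 over saline. In this group 6 of 8 libraries lay above the highest saline library. Npas2 was at 1.52 to 10.4 CPM (median 3.53), a log2 fold change of 1.78 ± 0.40, and 7 of 8 libraries exceeded the saline range. Clock was at 20.1 to 25.2 CPM (median 21.2), with all 8 libraries above all 7 saline libraries and a log2 fold change of only 0.21 ± 0.07. Cry1 was at 1.45 to 5.13 CPM (median 2.85), with a log2 fold change of 0.65 ± 0.34. Of the activator arm, Arntl and Npas2 passed the threshold and Clock and Cry1 did not.

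None of the 6 genes of the D-box and repressor arm passed in this comparison in edgeR, with 4 of them at an unadjusted p under 0.05, and DESeq2 called 1 of the 6. Dbp was at 1.51 to 23.3 CPM (median 8.05) in MCC950 libraries, with a log2 fold change of -1.16 ± 0.55. Of the 8 libraries, 5 lay below the lowest saline library and 3 within the saline range. The other differences were smaller, with log2 fold changes of -0.65 ± 0.28 for Per3, -0.64 ± 0.25 for Nr1d2, -0.56 ± 0.23 for Bhlhe41, -0.52 ± 0.29 for Ciart and -0.31 ± 0.27 for Nr1d1. All 6 estimates were negative, in a list drawn up with the direction known. Bhlhe41 lay below the saline range in 6 of 8 libraries and Ciart in 3 of 8.

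In total 2 of the 10 genes passed between MCC950 and saline, beside 16.8% of all genes (11.9% higher and 4.86% lower), and 1 of the 10 had groups that did not overlap, beside 1.74% of all genes. Under the threshold of the study 3 of the 10 passed, beside 2.71% of all genes. The count depended on the fit. It was 7 with proximal tubule markers as the covariate, 6 with immediate early genes as the covariate, 5 in the fit blocked on replicate number and 1 with the podocyte markers. Npas2 passed in all 12 other fits and in all 21 fits without 1 library, and Arntl in 11 of the 12 and in all 21. Between MCC950 and young libraries 1 of the 10 genes passed, beside 38.3% of all genes (21.8% higher and 16.5% lower), 0 passed under the threshold of the study, beside 8.37%, and 0 had groups that did not overlap, beside 7.94%. The gene that passed was Clock, with a log2 fold change of -0.37 ± 0.08. The other 9 log2 fold changes ran from -0.22 for Arntl to 0.68 for Ciart. Without MCC950 replicate 3, the count in this comparison was 3.

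**Figure D2:**
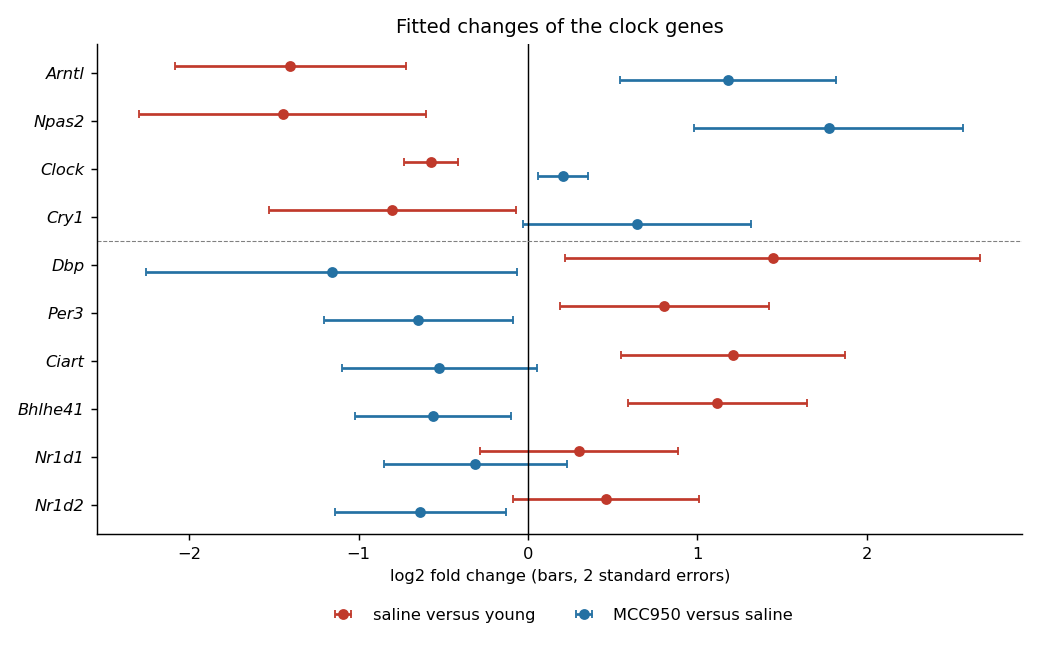
Fitted log2 fold changes of the 10 clock genes for saline versus young (red) and MCC950 versus saline (blue), with bars of 2 standard errors on each side and a dashed line between the arms. The red points run from -1.45 for Npas2 to 1.44 for Dbp and the blue points from 1.78 for Npas2 to -1.16 for Dbp; both contrasts use the same saline libraries.

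To set the arms against each other, the mean log2 CPM of the 6 genes was subtracted from that of the 4 activator genes in each library. This arm difference ran from -1.39 to 1.38 in young libraries (median -0.36), from -2.84 to -1.29 in saline libraries (median -2.05) and from -1.84 to 1.53 in MCC950 libraries (median -0.66). Its zero depends on which genes are averaged, so only differences between libraries can be read. The saline libraries lay toward the low end and overlapped the other groups. The SD was 0.592 in saline libraries, against 1.14 in young and 1.26 in MCC950 libraries. From the fit, the mean log2 fold change of the activator arm minus that of the other arm was -1.95 for saline versus young, 1.59 for MCC950 versus saline and -0.36 for MCC950 versus young. Leaving out any library kept these values between -2.20 and -1.68, between 1.31 and 1.79 and between -0.64 and -0.07. With podocyte markers as a covariate the first was -0.48, in a fit that cannot separate these markers from age.

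The clock genes also differed strongly between mice of the same group. The within-group SD of Dbp was 1.27 on the log2 scale, above 98.99% of all genes tested. The median over the 10 genes was 0.620, against 0.270 over all genes. Clock was the exception, with an SD of 0.134, at percentile 12.6 of all genes. The share of variance that lay between the 3 groups had a median of 35.5% over the 10 genes and 31.1% over all genes, and it ran from 11.6% for Nr1d1 to 76.1% for Clock. Counting error was small for Dbp, which had between 29 and 2740 counts in a library, and larger for Bhlhe41, which had between 19 and 287.

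Since the list was chosen on differences between groups, the variation inside each group was examined separately. In young libraries Arntl was at 3.01, 3.71, 10.3, 11.3, 8.03 and 6.69 CPM in replicates 1 to 6, and Dbp was at 17.4, 14.7, 2.00, 1.06, 5.33 and 6.44 CPM in the same libraries. In saline replicates 1 to 7 Arntl was at 2.83, 2.85, 2.64, 3.52, 1.54, 1.97 and 3.62 CPM and Dbp at 21.4, 13.8, 19.5, 13.0, 33.3, 37.7 and 11.7 CPM. In MCC950 replicates 1 to 8 Arntl was at 3.82, 3.17, 11.2, 7.16, 3.81, 3.29, 6.90 and 9.61 CPM and Dbp at 15.5, 23.3, 1.51, 4.51, 14.8, 11.6, 2.72 and 3.29 CPM. In each group the libraries with the highest Arntl had low Dbp, though the order was not strict in the saline and MCC950 groups, where for example saline replicate 1 exceeded replicate 3 in both genes.

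Pearson's r of log2 CPM of Arntl and Dbp was -0.95 over 6 young libraries (exact permutation p = 0.00694, adjusted p = 0.0309 over 27 relations), and Spearman's rho was -1.0 (exact permutation p = 0.00278, adjusted p = 0.025). Over 7 saline libraries r was -0.92 (exact permutation p = 0.00437, adjusted p = 0.0309) and rho was -0.93 (exact permutation p = 0.00675, adjusted p = 0.0455). Over 8 MCC950 libraries r was -0.95 (exact permutation p = 0.00208, adjusted p = 0.0281) and rho was -0.83 (exact permutation p = 0.0154, adjusted p = 0.0563). Without the 2 libraries farthest from the median of Arntl, r was -0.97, -0.82 and -0.93. These p-values treat the libraries of a group as independent and ignore that neighbouring mouse numbers were alike in these genes, as described further on, so they may be too small. The groups were not evenly filled. No young library had between 3.71 and 6.69 CPM of Arntl and no MCC950 library between 3.82 and 6.90 CPM, so in these groups r largely compares the libraries below the gap (2 and 4) with those above it (4 and 4), and with under 6 libraries on a side the relation could not be tested within them. The saline libraries lay wholly below 3.71 CPM and had a gap of their own, with replicates 5 and 6 at up to 1.97 CPM of Arntl and the other 5 at 2.64 CPM or more. For Dbp the same 2 libraries stood at 33.3 CPM or more and the others at up to 21.4 CPM.

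**Figure D3:**
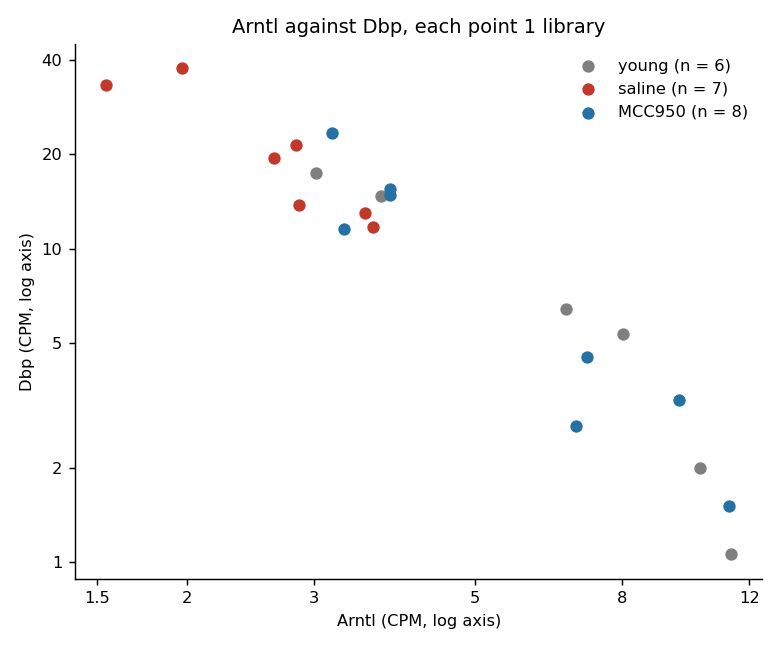
Level of Dbp against level of Arntl in 21 libraries, both in CPM on log axes, each point a mouse coloured by group. Points run from high Dbp and low Arntl, where all 7 saline libraries lie, to high Arntl and low Dbp, where only young and MCC950 libraries lie, with none between 3.82 and 6.69 CPM of Arntl.

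Of the 27 relations of Arntl to the other 9 genes in the 3 groups, 16 had an unadjusted and 9 an adjusted exact permutation p under 0.05 for Pearson's r. For Spearman's rho the adjusted p was under 0.05 only for Dbp in young and saline, Nr1d2 in young and Npas2 in MCC950 libraries. Passing refers to r in what follows. Those that passed were negative for Dbp in all groups, for Nr1d2 in young and MCC950 libraries (r of -0.95 and -0.92) and for Ciart in saline libraries (r of -0.87, and -0.74 without the 2 libraries farthest from the median of Arntl). They were positive for Npas2 in saline and MCC950 libraries (r of 0.85 and 0.95, and 0.58 and 0.91 without the 2 libraries farthest from the median of Arntl) and for Cry1 in MCC950 libraries (r of 0.95). Cry1 had an r of -0.39 in saline libraries, with an exact permutation p of 0.382, which turned to 0.70 without the 2 libraries farthest from the median of Arntl. The relation of Bhlhe41 to Arntl passed in no group, with r between -0.43 and -0.08. Leaving out 1 library at a time gave between 6 and 14 relations that passed, the highest number without saline replicate 6.

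As a description, r was also taken over all 21 libraries after the mean of each group had been removed. All 6 pairs within the activator arm were positive, from 0.59 to 0.87. Of the 24 pairs across the arms 23 were negative, with a median of -0.69 and a lowest value of -0.94 for Arntl and Dbp. The exception was Cry1 with Bhlhe41, at 0.10. Within the D-box and repressor arm 14 of 15 pairs were positive, up to 0.98 for Dbp and Nr1d2. Bhlhe41 stood apart here too, with an r of 0.23 to Dbp and -0.11 to Nr1d1 but 0.55 to Ciart. These 21 points share the libraries' depth, cell composition and any gap within a group.

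The remaining 11 core clock genes were not on the list. In edgeR 0 of the 11 passed between saline and young libraries (1 at an unadjusted p under 0.05, Per1, and 0 with DESeq2), beside the 24.6% of all genes. Per1 had a log2 fold change of 0.32 ± 0.14 and Tef, a D-box activator, 0.49 ± 0.29. The second period gene, Per2, was at medians of 12.4 and 11.03 CPM, with a log2 fold change of 0.13 ± 0.22, and Cry2 had 0.40 ± 0.20. Bhlhe40, the relative of Bhlhe41 and the most abundant of all 21 clock genes at a median of 35.0 CPM per kilobase in young libraries, had a log2 fold change of -0.05 ± 0.14. Rora, Rorb, Nfil3, Hlf and Arntl2 had log2 fold changes between -0.73 and 0.12.

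Between MCC950 and saline libraries 2 of the 11 passed in edgeR, among them Nfil3, a share close to the 16.8% of all genes. Nfil3, the D-box repressor, rose from a median of 15.7 CPM (12.6 to 19.0) to 25.4 CPM (13.6 to 44.3), with a log2 fold change of 0.75 ± 0.23 (adjusted p = 0.0320). The call was not firm, since Nfil3 still passed in 12 of the 21 fits that left out 1 library. Per1 missed the threshold in edgeR at -0.36 ± 0.13 on the log2 scale (adjusted p = 0.0588). It passed in 7 of the 21 fits that left out 1 library and in 4 of the 12 other settings, DESeq2 among them. Against young libraries Nfil3 rose by 0.73 ± 0.25 (edgeR, adjusted p = 0.0233) and the other 10 did not pass, beside 38.3% of all genes that passed.

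Inside the groups, several of these 11 genes followed the listed ones. With the arm difference of each library, r over 21 libraries after removal of group means was 0.86 for Nfil3, -0.85 for Tef, -0.77 for Hlf and -0.75 for Cry2. Per1 was near 0 at 0.004, Per2 was at -0.25 and Bhlhe40 at 0.31. In MCC950 libraries Nfil3 was at 33.8 to 44.3 CPM in replicates 3, 4, 7 and 8 and at 13.6 to 17.1 CPM in replicates 1, 2, 5 and 6. These are the same libraries that lay above and below the gap of Arntl. In the saline group Nfil3 did not follow the arm difference clearly. Saline replicates 5 and 6 had the lowest arm differences, -2.825 and -2.841, yet Nfil3 was at 15.72 and 18.22 CPM, against a saline median of 15.72 CPM. Saline replicate 7 was highest in both, at -1.288 and 19.05 CPM. Tef and Hlf, which encode the relatives of DBP, had an r of 0.89 and 0.83 with Dbp.

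**Figure D4:**
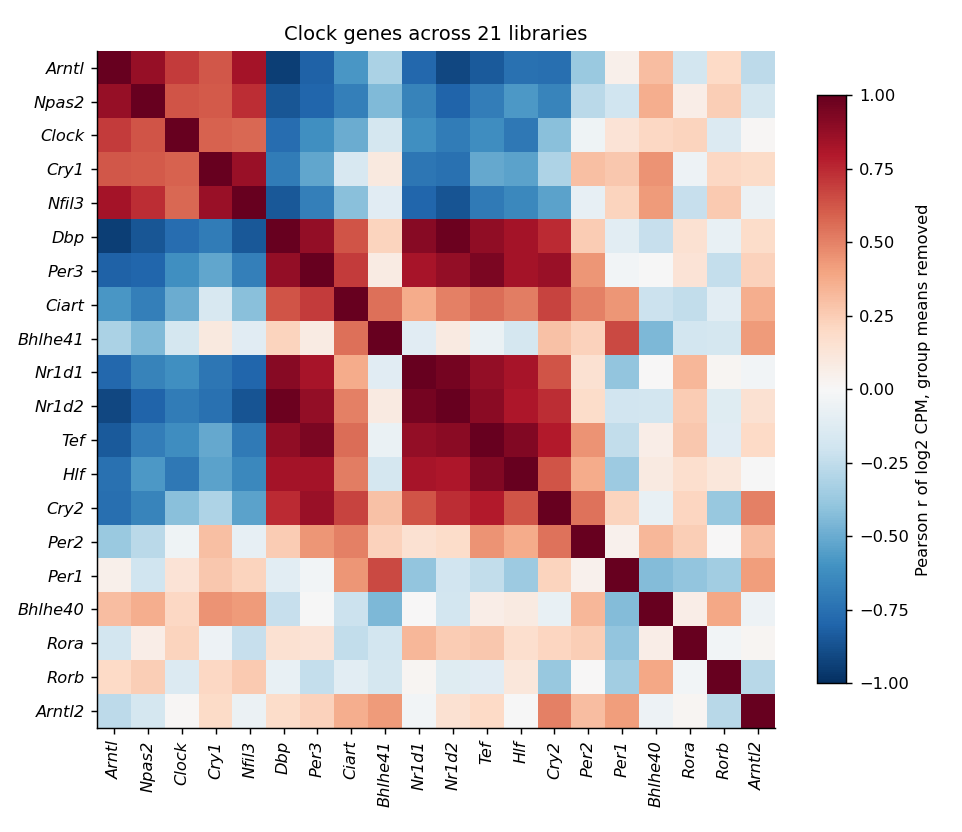
Pearson's r between clock genes over 21 libraries, from log2 CPM with group means removed, coloured from -1 (blue) to 1 (red). Activator genes with Nfil3 form a red block, and Dbp, Per3, Nr1d1, Nr1d2, Tef, Hlf and Cry2 form another, with blue between them; Bhlhe41, Per1, Bhlhe40, Rora and Rorb belong to neither block.

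Over 12095 genes outside the list with a mean of at least 1 log2 CPM, the 5 whose levels ran most closely with the arm difference were Nfil3 (r of 0.86), Leo1 (0.86), Ppard (0.84), Avpr1a (0.83) and Tsc22d2 (0.82). Ppard encodes a nuclear receptor for fatty acids and Avpr1a a vasopressin receptor. The 5 that ran most closely against it were Car9 (-0.85), Tef (-0.85), Tspan4 (-0.84), Kcnt1 (-0.83) and Rgs16 (-0.81). Car9 encodes a carbonic anhydrase and Rgs16 a regulator of G protein signalling. Only 10 genes had an r over 0.8 and 7 an r under -0.8, while 98 in 100 genes lay between -0.68 and 0.66. Nfil3 and Tef, which were on neither arm's list, thus stood among the nearest genes at both ends.

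Some mice carry neighbouring numbers in the labels, and these resembled each other in their clock genes. The numbers of each group run in a block of their own, and the labels do not say that they mark a batch. The 10 pairs of neighbouring numbers (replicates 1 and 2, 3 and 4, 5 and 6, and in the MCC950 group 7 and 8) were formed after the values had been seen. In the MCC950 group and in part of the saline group the numbers run on without a break, so that the pairs there were taken in order and libraries of 2 pairs, such as MCC950 replicates 2 and 3, can be neighbours as well. Dbp differed within such pairs by 0.557 on the log2 scale on average and by 1.62 between other libraries of the same group, a ratio of 0.343. The ratio was 0.362 for Arntl, 0.334 for Cry1, 0.348 for Nr1d2 and 0.396 for Tef. The median ratio over the 10 genes was 0.445, against 0.979 over all genes tested, 5% of which lay under 0.636. Bhlhe41 and Ciart did not share the pattern, with ratios of 1.08 and 0.802. What the neighbouring mice had in common was not tested.

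**Figure D5:**
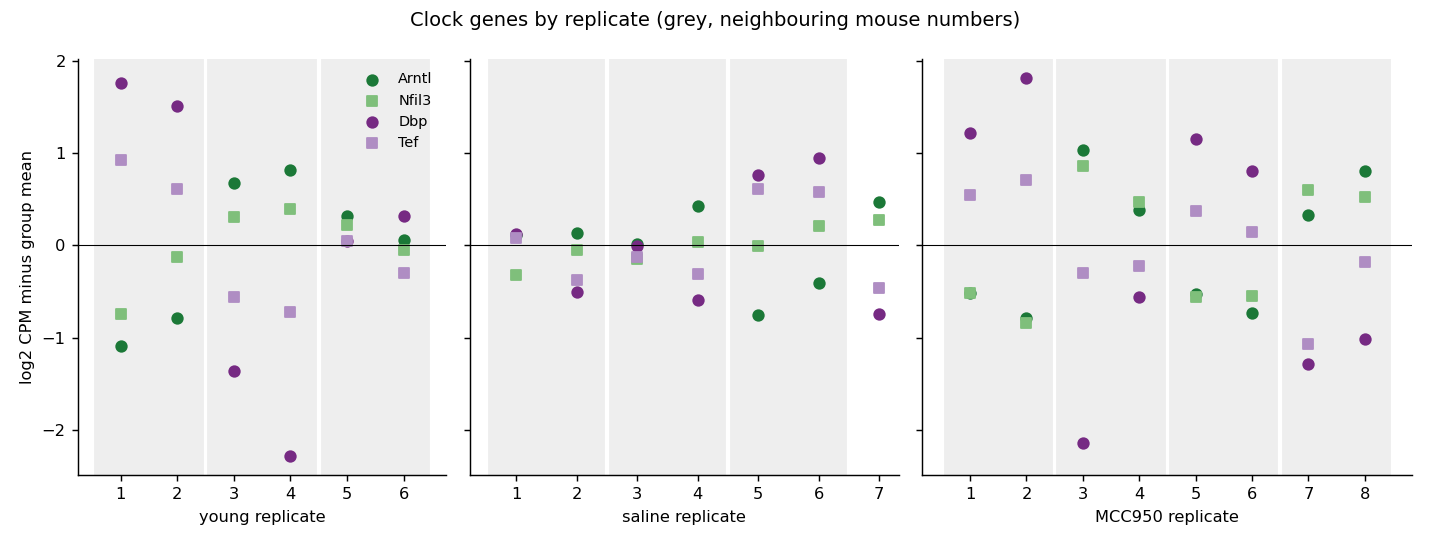
Log2 CPM of Arntl, Nfil3, Dbp and Tef minus the mean of their group, by replicate, with grey bands over the 10 pairs of neighbouring mouse numbers. In the MCC950 bands and in young replicates 1 to 4 the libraries of a band share a sign, with Arntl and Nfil3 (green) opposite to Dbp and Tef (purple). In young replicates 3 and 4, for example, Dbp is at 2.00 and 1.06 CPM. The genes do not all keep to this in young replicates 5 and 6 and in the saline bands.

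Further lists of genes around the clock were tested in the same fit. Of 16 regulators of the clock proteins 4 passed with age in edgeR, a share close to the 24.6% of all genes: Hdac3, a deacetylase that works with REV-ERB, was higher (log2 fold change 0.26 ± 0.08), and Timeless (-0.57 ± 0.14), the kinase gene Gsk3b (-0.38 ± 0.08) and the corepressor gene Ncor1 (-0.31 ± 0.07) were lower. Between MCC950 and saline 3 of 16 passed, close to the 16.8% of all genes, Csnk2b being higher (0.27 ± 0.08) and Kdm5a (-0.28 ± 0.06) and Sirt1 (-0.26 ± 0.09) lower. Of 11 general output genes of the clock 1 passed between saline and young libraries, Lonrf3 (-0.73 ± 0.24), and 1 between MCC950 and saline libraries, Alas1, the first enzyme of haem synthesis (0.87 ± 0.16), beside the same 24.6% and 16.8% of all genes. Between MCC950 and young libraries 3 of the 11 passed, beside 38.3%. Tspan4, one of the 5 genes nearest to the repressor side, had log2 fold changes of 0.39 ± 0.15 and -0.25 ± 0.14 and did not pass.

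Of 8 clock-linked genes of kidney salt and water handling 3 passed with age and 1 with MCC950, beside 24.6% and 16.8% of all genes: Sgk1 (-1.04 ± 0.16) and the vasopressin receptor gene Avpr2 (-0.85 ± 0.25) were lower with age and Fxyd5 (0.80 ± 0.21) higher, and Edn1, which encodes endothelin 1, was lower with MCC950 (-0.55 ± 0.16). Of 10 glucocorticoid-responsive genes 3 passed with age and 1 with MCC950, beside the same shares of all genes: Sgk1, which is on both lists, fell and the metallothionein genes Mt1 (0.44 ± 0.14) and Mt2 (0.63 ± 0.17) rose with age, and Errfi1 (0.66 ± 0.11) rose with MCC950.

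Of 8 temperature-responsive genes 3 passed with age, beside 24.6% of all genes, and 5 with MCC950, beside 16.8%, the contrasts again sharing the saline libraries. Cirbp, a cold-inducible RNA-binding protein gene, was higher with age (0.76 ± 0.20) and lower with MCC950 (-0.72 ± 0.18), from medians of 16.7 to 28.7 to 18.2 CPM. Rbm3, of the same list, did not share the rise with age, with medians of 19.93, 18.39 and 13.75 CPM in young, saline and MCC950 libraries. The heat shock gene Hsph1 was lower with age (-0.67 ± 0.18) and higher with MCC950 (0.64 ± 0.17). Of 18 immediate early genes, which digestion of tissue is known to induce, 0 passed with age in edgeR (0 at an unadjusted p under 0.05) and 1, Egr2, was lower with MCC950 (-0.64 ± 0.19).

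Over 21 libraries with group means removed, the mean level of the immediate early genes had an r of 0.71 with the arm difference. It was 8.336 to 8.578 log2 CPM in MCC950 replicates 3, 4, 7 and 8 and 7.778 to 7.802 in replicates 1, 2, 5 and 6. The saline group did not show the relation clearly. Saline replicate 6 had the lowest arm difference (-2.841) and the highest score (8.411), and replicate 5 had -2.825 and the lowest score (7.911). The medians of that score were 8.37, 8.33 and 8.07 log2 CPM in young, saline and MCC950 libraries. The corresponding r was -0.56 for proximal tubule, 0.38 for podocyte and 0.22 for macrophage markers. With age 9 of 10 podocyte, 6 of 7 endothelial and 6 of 6 mesangial and smooth muscle markers passed as lower, beside 12.4% of all genes. Of 10 proximal tubule markers 0 passed with age in edgeR (1 at an unadjusted p under 0.05), beside 24.6% of all genes. With MCC950, 4 of 10 podocyte and 7 of 10 proximal tubule markers passed as higher, beside 11.9% of all genes. The part of these shifts in the levels of the clock genes was not tested, apart from the fits with a covariate given above.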

How the data were processed

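mRNA from podocyte fractions of 21 mice was analysed, grouped by the labels. The submitters' notes name Trim Galore, Bowtie2, featureCounts and the build mm10 (GRCm38). The deposited values are raw counts for 27179 genes listed by Entrez number, and no versions, strand setting or handling of multiple alignments are given in the sources used here. A normalized table was not used. Some genes are counted in the totals but not reported here by name. The 10 genes and all gene lists were chosen with earlier results of these data known. The test was that of edgeR 4.0.16, run under R 4.3.3 (TMM, filterByExpr, quasi-likelihood F test, all 3 groups in 1 fit, Benjamini-Hochberg over 16377 genes, threshold 0.05), after a test on simulated data, with DESeq2 1.42.0 as an alternative. Levels are TMM-scaled CPM, and log2 CPM uses a prior count of 2. Relations within a group used exact two-sided permutation tests (scipy 1.17.1). Mice were separate animals, and no libraries were duplicates (lowest chi-square per degree of freedom 16.7). Total counts per library had medians of 29867773.5 (young), 64842206 (saline) and 46642389.5 (MCC950).

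The genes named are the 10 clock genes, the 11 other clock genes, up to 4 genes of each further list per comparison with the largest changes among those that passed, and the 5 genes with the highest and the 5 with the lowest r to the arm difference. Exon lengths came from GENCODE vM21. The alternatives were 12 planned settings, each of the 21 libraries left out in turn, and 2 settings chosen after seeing the data: libraries thinned to 5804891 counts, and the libraries of the replicate block fit without the block.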

Additional observations from a re-analysis of the deposited data

Results flagged for a closer look

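Rorb, which encodes a nuclear receptor that binds ROR elements, had 1 library far from the others of its group. MCC950 replicate 6 was at 0.0366 CPM, and on the log2 scale its distance to the next library made up 0.587 of the range of the 8 MCC950 libraries. This value rests on 2 counts, and no MCC950 library had more than 25 counts of Rorb, so it lies near the floor of counting. Of 66 groups of libraries examined for the clock genes this was the only one, and chance marks about 1 in 20.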

How the results depend on the processing

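Numbers are of the 10 listed and the 11 other clock genes that passed. With the study's threshold as applied here (unadjusted edgeR p under 0.05 and over 2-fold) 0 listed genes passed for MCC950 versus young, and 0 other clock genes for MCC950 versus saline or young. DESeq2 size factors, no filter on low counts, and thinning each gave 1 other clock gene for MCC950 versus saline. With only the 2 groups compared in the fit, 4 listed genes passed for MCC950 versus saline and 0 other clock genes for MCC950 versus young. With podocyte markers as a covariate 0, 1 and 0 listed genes passed for saline versus young, MCC950 versus saline and MCC950 versus young (1, 3 and 1 at an unadjusted p under 0.05), 0 other clock genes passed for MCC950 versus young, the arm differences of the first and last were -0.48 and 0.64, the latter reversed, and Npas2 reversed to 0.21 for saline versus young. With proximal tubule markers as a covariate 8, 7 and 3 listed genes passed, 2 other clock genes passed with age, and the arm difference was 2.75 for MCC950 versus saline and reversed to 0.56 for MCC950 versus young. With immediate early genes as a covariate 6 listed genes passed for MCC950 versus saline. The podocyte marker level did not overlap between young libraries and either older group (at most 5.216 log2 CPM in MCC950, at least 5.265 in young). Its fit therefore cannot separate the markers from these groups. The cause of these shifts was not tested.

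Replicate numbers do not pair the mice (r between libraries of the same number from -0.06 to 0.35, -0.14 to 0.33 and -0.01 to 0.40). With replicate number as a block 5 listed genes passed for MCC950 versus saline, and 1 other clock gene with age and 3 for MCC950 versus young. The same libraries without the block gave 1 other clock gene for MCC950 versus saline and 0 for MCC950 versus young.

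Leaving out 1 library gave 4 to 7, 2 to 3 and 1 to 3 listed genes, 0 to 1, 0 to 3 and 0 to 2 other clock genes, arm differences of -2.20 to -1.68, 1.31 to 1.79 and -0.64 to -0.07, and r of Arntl and Dbp of -0.97 to -0.94 (young), -0.95 to -0.91 (saline) and -0.97 to -0.93 (MCC950), with 6 to 14 relations that passed. Of the changes of single genes under the alternatives, 1964 were counted as unchanged. For a listed gene this meant a move smaller than the spread between replicates, whether or not it still passed. For another clock gene it meant the same side of the threshold, and a change of sign was disregarded where neither fit passed. Among the other clock genes 40 changes fell short of the threshold and 23 newly passed it. Calls gained or lost by listed genes are not in these numbers. Among the listed genes 16 changes moved by more than the spread. A change of sign in a gene that passed occurred 1 time. Genes at few counts, such as Ciart at 20 in 1 library, are limited by depth.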
